A study of Mus musculus with 22 samples.

Results

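TIP60-p400 is a large chromatin complex of animal cells. Its acetyltransferase, KAT5 (also called TIP60), acetylates histones H4 and H2A and non-histone proteins such as ATM and p53, and its ATPase, EP400, can exchange H2A for the histone variant H2A.Z. Several further subunits, such as RUVBL1, RUVBL2, DMAP1 and VPS72, also belong to SRCAP, the other remodeller that loads H2A.Z. The transcripts described here are those of 10 subunits that TIP60-p400 does not share with SRCAP, taken by gene symbol from a table of 55335 genes: Kat5, Ep400, Trrap, Ing3, Mrgbp, Epc1, Epc2, Brd8, Mbtd1 and Morf4l1. Each symbol stood on 1 row.

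RNA-seq had been performed on pools of 15 mouse embryos, with 22 libraries in 6 groups. The labels give the strain as B6D2F1, and the methods describe B6D2F1 females mated with B6D2F1 males, so the embryos are offspring of an intercross of hybrids. Control embryos gave 4 libraries each at the 2-cell stage (43 to 44 h post hCG), the morula stage (78 h) and the blastocyst stage (94 h). H2A.Z KD embryos, injected as zygotes at 20 to 22 h post hCG with about 10 pL of siRNA at 20 µM, gave 3, 3 and 4 libraries at these stages. The methods call the control embryos of the quantitative PCR noninjected and do not state the treatment of the controls sequenced here, so that injection and KD cannot be told apart. Every library was made by Smart-seq2, which amplifies polyadenylated RNA without recording its strand. A pool holds whole embryos, so fewer cells of a type and less RNA per cell cannot be told apart. Values are FPKM, a level scaled to the length of the transcript and to the mapped fragments of the library. The number of reads behind a value is unknown: in single-exon genes the commonest low value held only 3.73% to 11.6% of the low values of a library, which did not give whole reads.

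The KD was first read from its target. H2afz, which encodes H2A.Z.1, stood at 1244, 1236, 905 and 1178 FPKM in the control 2-cell libraries and at 415, 139 and 112 in the KD libraries. In morulae it stood at 1158, 1336, 1511 and 1421 FPKM in control and 30.3, 25.7 and 29.0 in KD libraries, and in blastocysts at 2656, 2431, 1945 and 2055 against 64.2, 67.2, 53.2 and 57.6. All KD libraries lay below all control libraries of their stage, and KD replicate 1 stayed highest among the 2-cell KD libraries. At the 2-cell stage H2afz had a log2 fold change of -2.53 ± 0.38 (SE) and did not pass (limma, Benjamini-Hochberg adjusted p = 0.544), and without KD replicate 1 it was -3.12 and passed (limma, adjusted p = 0.000909). H2afv, which encodes the paralogue H2A.Z.2, was also lower, by a log2 fold change of -2.94 ± 0.15 (SE) in morulae (limma, Benjamini-Hochberg adjusted p = 2.92e-06) and -1.86 ± 0.22 in blastocysts (limma, adjusted p = 7.98e-05). Control and KD libraries at the 2-cell stage had 96.8 to 117.5 and 83.7 to 97.6 FPKM of H2afv.

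In control embryos the subunits stood at very different levels, and their order changed between the stages. At the 2-cell stage, Mbtd1, a reader of methylated histone H4, led with a mean of 54.3 ± 7.84 FPKM (SD, n = 4). It was followed by Morf4l1, a chromodomain protein, at 34.7 ± 8.33, and by Epc2, one of the paired enhancer of polycomb scaffolds, at 19.9 ± 1.53, and these 3 did not overlap in their libraries. Ing3, Brd8 and Epc1 came next at 14.9, 11.9 and 11.1 FPKM, each overlapping its neighbour, then Ep400 at 6.35. The catalytic subunit Kat5 was at 1.87 ± 1.73 FPKM, close to Trrap, the scaffold shared with SAGA, at 1.62 and to Mrgbp, the partner of the MRG proteins, and these lowest 3 overlapped. In control morulae Morf4l1 stood alone at 100.1 ± 9.88 FPKM. Ing3, Brd8, Kat5, Mbtd1, Epc1, Epc2 and Mrgbp followed between 8.20 and 3.49, each overlapping the next, and Ep400 and Trrap were lowest at 1.52 and 1.05. In control blastocysts Morf4l1 led at 127.6 ± 37.8 FPKM, Brd8, a bromodomain subunit, followed at 12.2 ± 1.72, and Ing3, Mrgbp, Kat5, Epc1, Mbtd1 and Epc2 came next, each overlapping its neighbour. Ep400 and Trrap were again lowest, at 1.30 and 1.26 FPKM, and overlapped each other.

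**Figure D1:**
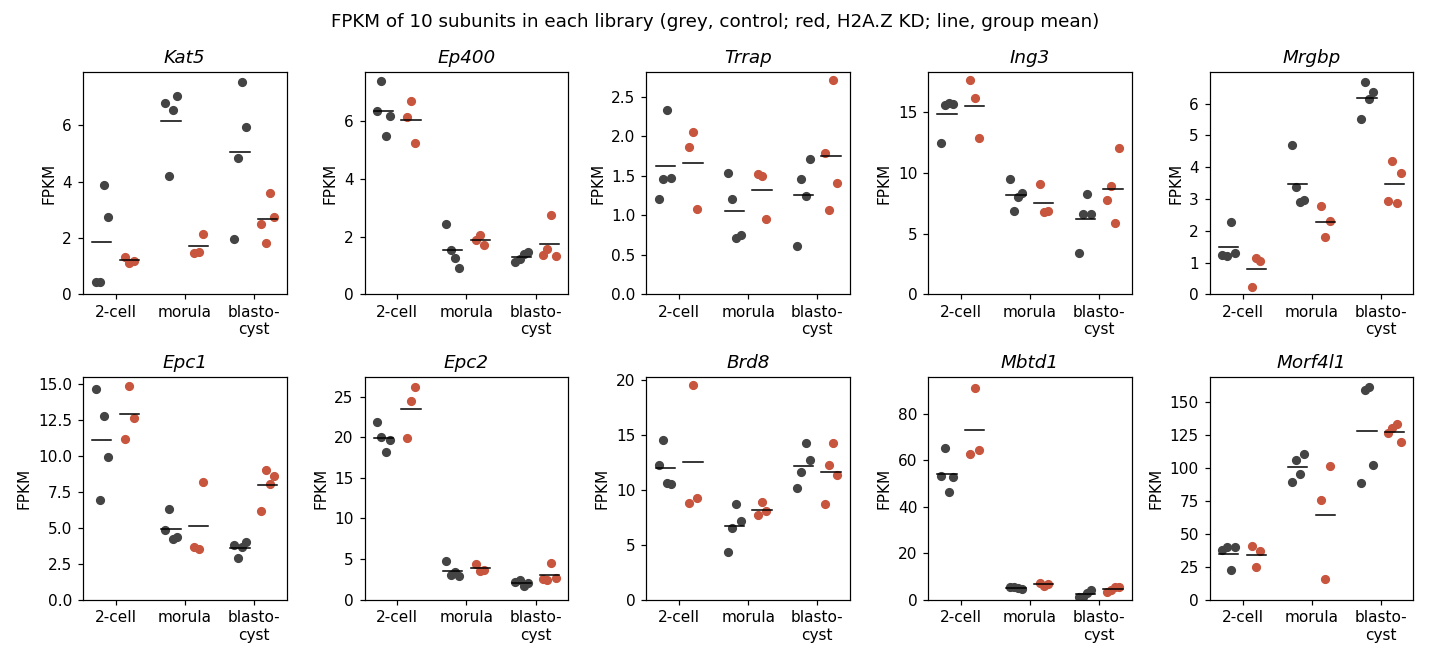
FPKM of the 10 subunits (vertical axes, each from 0) in every library of control (grey) and H2A.Z KD (red) embryos by stage, with the group mean as a line. Kat5 lies between 1.48 and 2.16 in the 3 KD morula libraries and between 4.21 and 7.04 in the 4 control ones.

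The passage of control embryos from the 2-cell to the morula stage was compared with limma on log2(scaled FPKM + 1), on which scale all fold changes below are given; they understate the change of genes of low FPKM. Of the 14686 genes tested, 40.6% were higher in morulae and 40.4% lower at an adjusted p under 0.05, the threshold used throughout. Among the subunits, 3 of 10 were higher and 7 of 10 lower, with a median log2 fold change of -0.94 against 0.03 over all genes. The 3 that rose were Kat5 (1.42 ± 0.37 SE; limma, adjusted p = 0.00254), Morf4l1 (1.36 ± 0.23; limma, adjusted p = 7.27e-05) and Mrgbp (0.74 ± 0.15; limma, adjusted p = 0.000331). The steepest falls were those of Mbtd1 (-3.33 ± 0.23; limma, adjusted p = 3.68e-09), Epc2 (-2.39 ± 0.16; limma, adjusted p = 3.31e-09) and Ep400 (-1.71 ± 0.17; limma, adjusted p = 2.08e-07). Epc1, Ing3, Brd8 and Trrap fell by 1.14, 0.95, 0.93 and 0.46 on the log2 scale. Trrap did not pass without 2-cell control replicate 4 (-0.37; limma, adjusted p = 0.0555), without morula control replicate 7 (-0.38; limma, adjusted p = 0.0665) or 8 (-0.40; limma, adjusted p = 0.0585), with deposited FPKM (limma, adjusted p = 0.0984) or with a replicate block (limma, adjusted p = 0.555).

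Kat5 was uneven at the 2-cell stage. Control replicates 1, 2, 4 and 5 had 0.439, 0.431, 3.89 and 2.74 FPKM, so that replicates 1 and 2 were low and replicates 4 and 5 high. The KD libraries, at 1.32, 1.10 and 1.20 FPKM, lay between these pairs. The same pairs of control replicates did not divide Mrgbp, where replicate 4 had 2.26 FPKM and the others 1.22 to 1.29.

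From the morula to the blastocyst, with the same morula controls as above, 24.4% of genes were higher and 21.7% lower. Of the subunits 2 of 10 rose and 2 of 10 fell. Mrgbp rose again (0.68 ± 0.15; limma, adjusted p = 0.00157), as did Brd8 (0.79 ± 0.21; limma, adjusted p = 0.00665). Mbtd1 (-0.98 ± 0.23; limma, adjusted p = 0.00267) and Epc2 (-0.55 ± 0.16; limma, adjusted p = 0.0125) fell again. The control libraries of Mrgbp show its course: 1.23, 1.22, 2.26 and 1.29 FPKM in 2-cell embryos, 4.71, 3.37, 2.90 and 2.96 in morulae and 5.53, 6.68, 6.16 and 6.38 in blastocysts, with no overlap between stages. Kat5 gave -0.33 ± 0.37 and did not pass (limma, adjusted p = 0.515). With a replicate block Mrgbp and Epc2 did not pass (limma, adjusted p = 0.193 and 0.224) and Kat5 did, at -1.19 (limma, adjusted p = 0.0114). Control morulae and blastocysts share only number 1, so the block rests on that pair and on links through the 2-cell libraries. Kat5 was low in blastocyst control replicate 1, at 1.95 FPKM against 4.85 to 7.55 in the others. No matching of numbers across stages is stated. Without blastocyst control replicate 5, Ing3 passed at -0.51 (limma, adjusted p = 0.0321). With a term for the range of replicate numbers both Kat5 (-0.58; limma, adjusted p = 0.046) and Ing3 (-0.46; limma, adjusted p = 0.0307) passed.

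H2A.Z KD was then compared with control within each stage, to see how the transcripts of the complex stood when H2A.Z transcripts were depleted. The control libraries are those of the comparisons between stages above. In 2-cell embryos none of the 10 subunits passed, and none of the 12160 genes tested did (0% higher, 0% lower with limma; 701 genes had an unadjusted p under 0.05). The median log2 fold change was 0.06 over the subunits and 0.0036 over all genes. Mrgbp had 0.227, 1.14 and 1.05 FPKM in the KD libraries, all below the control libraries (1 of 10 subunits, where 4.13% of genes lay below in this way and 2.65% above). Mbtd1 had 62.9, 91.3 and 64.3 FPKM against 53.0, 65.1, 46.3 and 52.7 in control libraries, and the groups overlapped.

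In morulae Kat5 was the 1 subunit that passed. It had 6.81, 4.21, 6.53 and 7.04 FPKM in the control libraries and 1.48, 1.51 and 2.16 in the KD libraries. Every KD library was under every control library, and the KD mean was 27.9% of the control mean. The log2 fold change was -1.29 ± 0.20 (SE; limma, adjusted p = 0.00488), which also made Kat5 a DEG, a gene that passed with an absolute log2 fold change above 1. Over all 10989 genes 9.05% passed lower, 4.22% passed higher and 2.59% were DEGs lower in KD, so 1 of 10 subunits passing lower was close to the share of all genes. The median log2 fold change was 0.15 over the subunits and 0.015 over all genes. Within replicates 1 and 2 the difference of Kat5 was -1.22. The higher numbers held 1 KD library, replicate 6, against control replicates 7 and 8, and gave -1.23.

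Kat5 overlaps another gene. It lies on chr19:5603014-5610237, minus strand (GRCm38, the assembly of mm10), and 426 of its 3509 exonic bases (12.1%) are also exonic in Rnaseh2c, a subunit of ribonuclease H2 on the opposite strand. Reads from the shared bases cannot be assigned to a strand. Rnaseh2c was higher in KD morulae (0.98 ± 0.23; limma, adjusted p = 0.0236) and in KD blastocysts (1.28 ± 0.24; limma, adjusted p = 0.00146), the direction opposite to that of Kat5. In control embryos it rose from the 2-cell stage to the morula (2.97 ± 0.24; limma, adjusted p = 1.91e-08), as Kat5 did, and fell from the morula to the blastocyst (-1.15 ± 0.24; limma, adjusted p = 0.000984), and the rise of Kat5 also includes the shared bases. Whether reads were divided differently between them was not tested.

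The other 9 subunits did not pass in morulae, apart from Morf4l1 with a replicate block. Mrgbp had 2.77, 1.79 and 2.31 FPKM against 4.71, 3.37, 2.90 and 2.96 and lay below all control libraries, while Mbtd1 had 7.30, 6.04 and 6.60 against 5.34, 5.51, 5.01 and 4.61 and lay above them. Kat5 and Mrgbp were thus 2 of 10 subunits fully below control, where 22.9% of all genes were, and Mbtd1 was 1 of 10 fully above, where 6.7% were. The log2 fold change was -0.35 ± 0.17 for Mrgbp (limma, adjusted p = 0.193) and 0.43 ± 0.15 for Mbtd1 (limma, adjusted p = 0.0783).

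Single libraries stood apart for some subunits in KD morulae. Morf4l1 had 75.3, 15.9 and 101.5 FPKM in KD replicates 1, 2 and 6 and 88.7 to 110.3 in control libraries, so that only replicate 2 was far below. Its log2 fold change was -0.86 ± 0.50 (limma, adjusted p = 0.267), and without KD replicate 2 it was -0.065. Without KD replicate 6 it was -1.39, and with a replicate block, which compares replicates 1 and 2, the numbers present in both groups, and leaves 1 residual degree of freedom, it was -1.28 and passed (limma, adjusted p = 9.37e-07). Morf4l1 shares 22.2% of its 50-base words with transcripts of other genes, the largest share among the subunits, and 1499 of its exonic bases (15.4%) with Gm26882, a long noncoding RNA on the opposite strand for which no value was used here. The part of these shared bases in its level was not tested. Epc1 had 3.69, 3.52 and 8.22 FPKM in KD replicates 1, 2 and 6 against 4.22 to 6.29 in control, with replicate 6 above and the others below all control libraries.

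In KD blastocysts 2 of 10 subunits were higher and 1 of 10 lower, where 16.7% of 11828 genes were higher and 19.8% lower. The median log2 fold change was 0.26 over the subunits and 0.0047 over all genes. Epc1, a scaffold that holds KAT5 to the rest of the complex, had 3.81, 2.92, 3.69 and 4.005 FPKM in control and 6.20, 9.04, 8.08 and 8.63 in KD libraries. No library overlapped, and the KD mean was 2.21 times the control mean. The log2 fold change was 0.96 ± 0.18 (SE; limma, adjusted p = 0.00153). Epc1 (chr18:6435951-6516108, minus strand) shares 322 exonic bases with the antisense gene Gm28529, which stayed between 0.0319 and 0.687 FPKM in blastocysts. It also shares 83 exonic bases (1.85%) with Mir1893, a microRNA gene on the same strand.

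Mbtd1 (chr11:93885852-93946985, plus strand) had 1.14, 1.30, 2.90 and 3.92 FPKM in control and 3.24, 4.07, 5.45 and 5.21 in KD blastocysts, and the groups overlapped. It was higher by 0.81 ± 0.25 (limma, adjusted p = 0.0241). The call was lost without control replicate 1 (0.66; limma, adjusted p = 0.0693), control replicate 4 (0.65; limma, adjusted p = 0.0821), KD replicate 5 (0.77; limma, adjusted p = 0.0565) or KD replicate 6 (0.75; limma, adjusted p = 0.0626).

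Mrgbp (chr2:180581304-180586304, plus strand) had 5.53, 6.68, 6.16 and 6.38 FPKM in control and 2.95, 4.20, 2.88 and 3.83 in KD blastocysts, again with no overlap. It was lower by a log2 fold change of -0.69 ± 0.18 (limma, adjusted p = 0.00935), and its call was kept when any 1 of the 8 libraries was left out. Among all genes 20.0% lay fully below control and 14.6% fully above, and of the subunits Mrgbp was 1 of 10 below and Epc1 1 of 10 above.

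Kat5 had 1.95, 4.85, 7.55 and 5.93 FPKM in control and 2.51, 1.81, 3.60 and 2.73 in KD blastocysts. Control replicate 1 was low, among the KD libraries, and the other 3 control libraries were above all of them. The log2 fold change was -0.64 ± 0.26 and did not pass (limma, adjusted p = 0.077). Without control replicate 1 it was -0.92 (limma, adjusted p = 0.00536), and with a replicate block Kat5 also passed (limma, adjusted p = 0.0467). Replicate 1 of each group differed by 0.21 and the higher replicates by -0.92.

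The remaining 6 subunits did not pass in blastocysts. Morf4l1 had 119.5 to 133.1 FPKM in KD and 88.6 to 161.2 in control libraries, and Brd8 8.65 to 14.2 and 10.2 to 14.2. Ep400, the ATPase, had 1.32 to 2.74 FPKM in KD and 1.14 to 1.45 in control, Trrap 1.07 to 2.71 and 0.615 to 1.71, Epc2 2.37 to 4.51 and 1.65 to 2.41, and Ing3, a reader of trimethylated H3K4, 5.86 to 12.1 and 3.39 to 8.25. All of these groups overlapped.

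**Figure D2:**
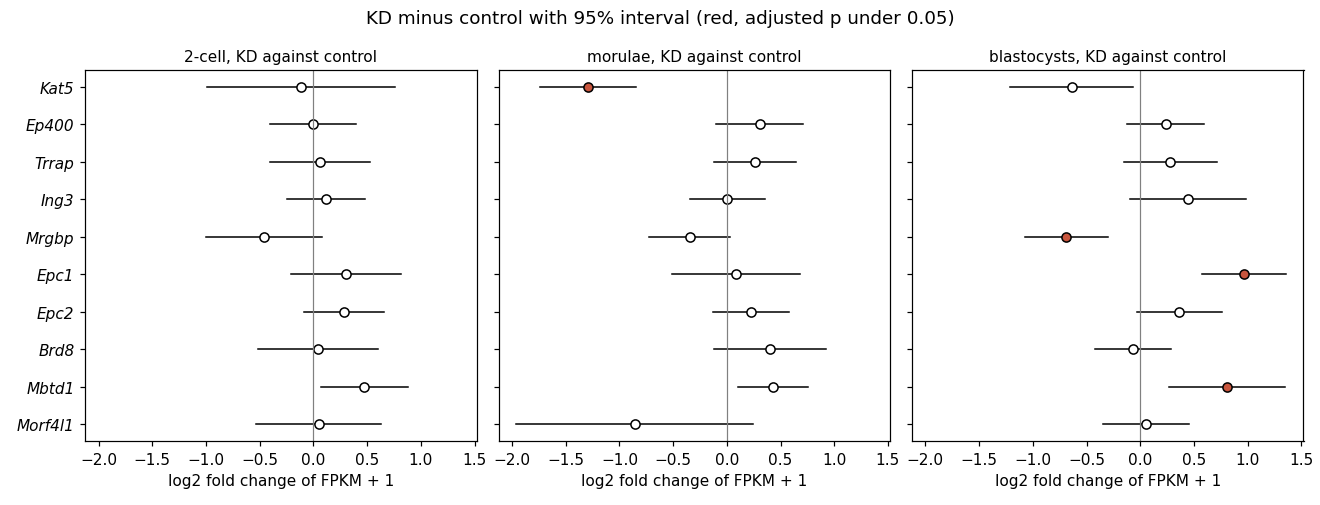
Log2 fold change of FPKM + 1, KD minus control (horizontal axis), of the 10 subunits in 1 panel for each stage, with the 95% confidence interval from limma as a line and a red point where the adjusted p was under 0.05. Kat5 stands at -1.29 in morulae, and Epc1, Mbtd1 and Mrgbp at 0.96, 0.81 and -0.69 in blastocysts.

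The difference of the KD effect between blastocysts and morulae was tested as an interaction in 1 fit, which uses the libraries of both comparisons above. None of the 10 subunits passed (0 of 10), where 5.43% of 12727 genes were higher and 6.3% lower. The difference was 0.64 ± 0.36 for Kat5 (limma, adjusted p = 0.259), -0.36 ± 0.23 for Mrgbp (limma, adjusted p = 0.331), 0.34 ± 0.31 for Mbtd1 (limma, adjusted p = 0.513) and 0.84 ± 0.32 for Epc1 (limma, adjusted p = 0.101). A difference between the stages was therefore not shown for Kat5, Mrgbp or Mbtd1. For Epc1 it depended on the setting: it passed without KD morula replicate 6 (1.21; limma, adjusted p = 0.00915), with deposited FPKM (0.98; limma, adjusted p = 0.0486), with TPM (1.19; limma, adjusted p = 0.0279) and with a replicate block (1.30; limma, adjusted p = 0.0353), which were 4 of 23 alternatives.

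Of the 7 subunits shared with SRCAP, 2 were lower and none higher in KD morulae, where 9.05% of all genes were lower and 4.22% higher. Dmap1, a partner of DNMT1, had 34.8, 28.9, 33.3 and 33.6 FPKM in control and 7.91, 11.6 and 11.2 in KD morulae, with no overlap. It was lower by -1.48 ± 0.18 (limma, adjusted p = 0.00164) and Ruvbl1, an AAA+ ATPase, by -0.62 ± 0.14 (limma, adjusted p = 0.0204). In blastocysts Dmap1 was lower (-0.57 ± 0.16; limma, adjusted p = 0.0126; with TPM 0.0944) and Ruvbl2 (0.88 ± 0.20; limma, adjusted p = 0.00425) and Vps72, the H2A.Z chaperone YL1 (0.90 ± 0.30; limma, adjusted p = 0.0348), were higher, where 19.8% of all genes were lower and 16.7% higher. Dmap1 fell less in blastocysts than in morulae, by 0.87 ± 0.23 (limma, adjusted p = 0.02), and without KD morula replicate 1 this difference was 0.68 and did not pass (limma, adjusted p = 0.0646), nor did it with a replicate block (limma, adjusted p = 0.0888). The call of Ruvbl1 was lost in 4 of 7 fits that left out 1 library (limma, adjusted p from 0.0505 to 0.0919), and that of Vps72 in 6 of 8 (limma, adjusted p from 0.0594 to 0.093). Their median log2 fold change was -0.36 in morulae and 0.11 in blastocysts, against 0.015 and 0.0047 over all genes. Of Meaf6 and Morf4l2, 2 further subunits, Morf4l2 was lower in blastocysts (-0.66 ± 0.16; limma, adjusted p = 0.00608). Of the 3 subunits of SRCAP alone, Znhit1 was higher in blastocysts (0.71 ± 0.21; limma, adjusted p = 0.0181), and Srcap and Actr6 did not pass in KD embryos of any stage. Without KD blastocyst replicate 1 or 6, Znhit1 did not pass (limma, adjusted p = 0.0525 and 0.0514).

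Other acetyltransferases and deacetylases were compared in the same fits, in which 16.7% of all genes were higher and 19.8% lower in blastocysts and 4.22% and 9.05% in morulae. Of the 3 other MYST acetyltransferases tested in blastocysts, Kat7 and Kat8 were higher, Kat8 by 0.82 ± 0.14 (limma, adjusted p = 0.00104), and none passed in morulae. Of 9 subunits of SAGA and ATAC tested, 3 were higher (Taf6l, Supt3 and Usp22) and Supt7l lower in blastocysts, and Sgf29 was higher and Supt7l lower in morulae. Of 7 deacetylases tested, Sirt1, Sirt6 and Sirt7 were higher and Sirt2 lower in blastocysts, with 1.72 ± 0.17 for Sirt7 (limma, adjusted p = 3.12e-05). In morulae Sirt1 was higher and Hdac3 and Sirt2 lower. Of 5 recruiting factors tested in blastocysts, E2f1 and E2f4 were higher and Mycn lower. Of 5 substrates, H2afz and H2afv included, 2 were higher and 2 lower in blastocysts and 2 lower in morulae: Trp53 was higher in blastocysts by 1.19 ± 0.25 (limma, adjusted p = 0.00279), and so was H2afx by 0.83 ± 0.30 (limma, adjusted p = 0.0447). Some of these genes met the filter of 1 FPKM in 3 libraries through 1 group alone and so had to be higher in it: in blastocysts Taf6l (3 of 4 KD and 0 of 4 control libraries) and E2f1 (4 of 4 and 0 of 4), and in morulae Sirt2 (3 of 4 control and 0 of 3 KD libraries). With 1 library left out, calls were lost in blastocysts for Sirt1, Supt3 and H2afx in 5 of 8 fits, for Usp22 and Mycn in 6 of 8 and for Taf6l in 2 of the 5 in which it still met the filter. In morulae they were lost for Sgf29 and Supt7l in 6 of 7 fits, for Sirt1 in 5 of 7, for Sirt2 in 3 of the 4 in which it still met the filter, and for Hdac3 in 1 of 7.

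Some markers of cell types and stages differed between KD and control. The summed FPKM of 6 trophectoderm markers was 583.9 to 783.7 in KD and 989 to 1474 in control blastocysts, with Krt18 the most abundant. Krt18 was lower by -1.02 ± 0.18 (limma, adjusted p = 0.00126) while Tfap2c was higher by 0.96 ± 0.23 (limma, adjusted p = 0.00675). Cdx2, Gata3, Krt8 and Eomes did not pass in blastocysts. The sum of 3 inner cell mass markers was 31.4 to 49.0 in KD and 118.5 to 164.7 in control morulae. Over all morula libraries Nanog reached 143.1 FPKM, Pou5f1 55.3 and Sox2 0.295. Nanog was lower by -2.23 ± 0.37 (limma, adjusted p = 0.00645), a call lost without the filter on low FPKM (limma, adjusted p = 0.0718). Pou5f1 did not pass in morulae, at -0.49 (limma, adjusted p = 0.195), and Sox2 was not tested. In blastocysts the sum of these 3 markers was 134.8 to 273.7 in KD and 109.2 to 218.5 in control libraries, and none of the 3 passed (Nanog 0.29, Pou5f1 0.82 and Sox2 -0.18). The KD effect on Nanog differed between blastocysts and morulae by 2.49 ± 0.45 (limma, adjusted p = 0.00203). The sum of 5 markers of the 2-cell stage was 3.08 to 14.0 in KD and 0.291 to 0.965 in control blastocysts. Over all blastocyst libraries Tdpoz4 reached 7.94 FPKM, Zfp352 5.02 and Usp17lc 1.57, and Zscan4c and Zscan4d at most 0.158 and 0.304. Only Zfp352 of the 5 was tested in blastocysts. It was higher by 1.57 ± 0.29 (limma, adjusted p = 0.00156). However, it met the filter of 1 FPKM through KD libraries alone (4 of 4, and 0 of 4 control libraries) and so had to be higher there. The sum of 4 primitive endoderm markers was 10.2 to 37.1 and 10.2 to 20.3 FPKM in these blastocysts, and that of 5 oocyte markers 2.14 to 4.89 and 1.77 to 2.21. The most abundant of the endoderm markers was Gata6. None of the 6 cumulus or granulosa markers and none of the 3 sperm markers reached the filter of 1 FPKM in 3 libraries, their sums were at most 0.129 and 1.24 FPKM, and Fshr was at 0 in all libraries. Of 3 blood markers Hbb-bs was at 0 in all libraries and Ptprc at most at 0.0195 FPKM, while Hba-a1 was tested and was higher in KD morulae, at 4.23 to 7.77 against 1.16 to 3.63 FPKM, and in KD blastocysts, at 2.09 to 3.71 against 0.599 to 1.79. Its call in morulae was lost without KD replicate 1 or 2 (limma, adjusted p = 0.0721 and 0.0527). The part of stage, of cell type and of these markers in the values of Kat5, Mrgbp, Epc1 and Mbtd1 was not tested.

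Over the 22 libraries, log2 values of Ep400, Epc2 and Mbtd1 ran together, with Pearson's r of 0.976 between Ep400 and Epc2 and 0.98 between Epc2 and Mbtd1. Kat5 ran opposite to Ep400 (r = -0.668) and with Mrgbp (r = 0.592). These values describe 22 libraries that fall into 3 stages, and libraries of a stage share that stage. Among 15696 genes, those most like Kat5 over the libraries were Pigs (r = 0.947), Wdr92 (r = 0.911) and Ankrd46 (r = 0.862). Those most like Ep400 were Otud4 (r = 0.99), Gm27671 (r = 0.989) and Tab2 (r = 0.989).

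The promoter table of RefSeq (GRCm38.p6) held 11 entries for 8 of the 10 subunits, and none for Epc1 and Brd8. In the 250 bases before the start, the GC box GGGCGG was found on either strand in 9 of the 11 entries, and in 32.7% of all 32851 promoters. The Kat5 entry shown here did not hold it. The E-box CACGTG was found in 2 of the 11 entries, 1 of Kat5 and 1 of Mbtd1, and in 6.02% of all promoters, and CCAAT in 5 of the 11 and 33.8%. The half-site CCGGAA was in 1 of the 11 entries, of Mbtd1, and in 3952 of all promoters, TGACGTCA in 2 of the 11, both of Ing3 (1.55%), and TATAAA in none (12.4%). The share of CpG over its expectation was 0.189 for Mrgbp and between 0.439 and 1.13 for the other entries, against a median of 0.373. The sequences of Kat5 and Mrgbp are shown because these 2 subunits had lower levels in KD embryos. Kat5 is given from chr19:5610238-5610344, minus strand, the 107 bases before the first annotated exon, and Mrgbp from chr2:180580972-180581221, plus strand. Capitals mark the motifs searched. A match is a description of letters.
Kat5: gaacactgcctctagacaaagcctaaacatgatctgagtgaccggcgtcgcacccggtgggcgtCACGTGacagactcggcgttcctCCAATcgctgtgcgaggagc
Mrgbp: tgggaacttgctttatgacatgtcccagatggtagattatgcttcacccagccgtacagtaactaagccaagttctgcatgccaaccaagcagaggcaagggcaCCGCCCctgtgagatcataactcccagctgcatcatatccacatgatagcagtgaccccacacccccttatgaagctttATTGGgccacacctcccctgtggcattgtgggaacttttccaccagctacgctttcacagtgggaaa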

How the data were processed

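RNA had been sequenced from pools of control and KD embryos, on HiSeq X-Ten instruments per the labels, as paired reads of 150 bp. For the deposited FPKM table, the authors used mm10, STAR and StringTie 2.1.4; FPKM divide by gene length and library total. Their DEGs came from DESeq2 1.30.1 on counts, which were not used here. Identifiers of all 10 subunits matched GENCODE vM21 with the same version.

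Each library's FPKM were scaled by its median ratio to the geometric mean, taken over genes above 0 throughout a comparison, and the factors were centred on a geometric mean of 1. The first fits used factors without this centring. It was added after their results had been seen, in part because it brought the DEG count in morulae to an earlier count from the same table, and the uncentred fits are given as an alternative. Genes at 1 FPKM or more in 3 libraries or more were tested on log2(scaled FPKM + 1) with R 4.3.3 and limma 3.58.1 (lmFit, eBayes with a trend), two-sided, without covariates, with Benjamini-Hochberg adjustment over all genes tested. Controls of the 3 stages were 1 fit. Libraries are separate pools of embryos, and p-values measure the spread between them. Libraries of the same number come from different embryos.

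Genes named were the 10 subunits, H2afz, H2afv, genes of the lists that passed, and the 3 genes most correlated with Kat5 or Ep400. Members and lists were chosen with earlier results of these data known, and 1 list is not reported here. Outside this rule, Rnaseh2c, Gm28529, Mir1893 and Gm26882 are named because they overlap members, and list genes that did not pass where markers at 0 or whole short lists are given; this choice followed a look at their values. Ep400 shares 119 exonic bases (0.852%) with Gm26079, a small nucleolar RNA gene on the same strand. Before use, the limma fit was tested on simulated data. Alternatives were other scalings, pseudocounts and filters, a replicate block, a term for the range of replicate numbers, and each library left out. Python 3.11.15 was used for sequences and matplotlib 3.10.9 for figures.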

Additional observations from a re-analysis of the deposited data

Results flagged for a closer look

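Over the 10 subunits, 40 groups of 4 libraries were examined for a library far from the rest on the scale of log2(scaled FPKM + 1), and 3 stood apart. Chance gives about 1 in 20 groups. Mrgbp in control 2-cell replicate 4 was high, with a gap of 0.958 of the range of its group. Morf4l1 in the same library was low, with a gap of 0.937 of the range. Epc2 in KD blastocyst replicate 5 was high, with a gap of 0.856 of the range, at 4.51 FPKM against 2.37 to 2.61 in the others. Groups of 3 libraries were not examined in this way.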

How the results depend on the processing

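The calls of Kat5 in morulae and of Epc1 and Mrgbp in blastocysts were kept in every alternative run. The filter of 5 FPKM in 3 libraries adds nothing here, as each met it through 1 group alone and its direction was fixed. Below 5 FPKM throughout were Kat5 in KD morulae (at most 2.16), Epc1 in control blastocysts (at most 4.005) and Mrgbp in KD blastocysts (at most 4.20). Mbtd1 in blastocysts lost its call without the filter on low FPKM (limma, adjusted p = 0.102; range over its alternatives 0.00688 to 0.102) and without each of 4 libraries. Over the subunits and the named list genes, 1656 values kept direction and side of the threshold, 129 lost a call, 12 gained one and 54 changed sign. Without the filter, calls of list genes were lost in morulae for Nanog (limma, adjusted p = 0.0718), Ruvbl1, Hdac3, Sirt1, Sirt2, Sgf29, Supt7l and Hba-a1, and in blastocysts for Vps72, Znhit1, Kat7, H2afx, Sirt1, Mycn, E2f4, Taf6l, Supt3 and Usp22. With deposited FPKM and with TPM they were lost for Sirt1 and Sgf29 in morulae and for Vps72 and H2afx in blastocysts, with deposited FPKM alone for Usp22 and with TPM alone for Mycn, Supt7l and Dmap1 in blastocysts, with a pseudocount of 0.1 for Sgf29 and with the replicate block for Supt7l in morulae and for Dmap1 in the interaction. The number of reads is unknown, which limits subunits near 1 FPKM, such as Trrap and Ep400.

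The median log2 fold change of all genes, 0.015 in morulae, 0.03 from 2-cell embryos to morulae and -0.0085 in the interaction, became -0.14, -0.13 and 0.27 after rescaling to TPM and -0.09, 0.14 and 0.11 with deposited FPKM.

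TPM also turned the balance of calls, to 2070 higher and 1925 lower in blastocysts (1977 and 2344 before), to 2882 and 3726 from morulae to blastocysts (3577 and 3192) and to 5421 and 6296 from 2-cell embryos to morulae (5962 and 5939).

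Counts moved by over 1.5 times as follows. In morulae, 464 genes were higher and 995 lower. With deposited FPKM they were 281 and 1553 (15.3% of calls higher), with TPM 240 and 1787 (11.8%), and with the range of replicate numbers 777 higher. Counts under other filters have another base, since the number of genes tested changed with them. Without the filter 129 were higher and 283 lower of 32900 tested. With a filter at 5 FPKM 280 were higher and 578 lower of 6361, against 10989 tested in the main fit. In blastocysts the filter at 5 gave 1231 higher and 1537 lower of 6886 tested, against 11828 in the main fit. It gave 1 subunit higher, since Mbtd1 reached 5 FPKM only in KD replicates 5 and 6 and was not tested. No filter also gave 1 subunit higher, but there Mbtd1 was tested and did not pass (limma, adjusted p = 0.102). From 2-cell embryos to morulae, 10476 genes were lower with no filter (39136 tested) and 3309 with the filter at 5 (8943 tested). From morulae to blastocysts 2365 were higher with the latter. The main fit of the control embryos tested 14686. In the interaction 691 genes were higher and 802 lower. TPM gave 1287 higher and 468 lower (73.3% of calls higher, and 56% with deposited FPKM). No filter gave 399 higher of 37157 tested, against 12727 tested in the main fit. A pseudocount of 0.1 also turned this balance, to 729 higher and 576 lower (55.9% of calls higher). So did the filter at 5 (543 and 537) and leaving out blastocyst control replicate 5 (865 and 855). In the interaction 1 subunit, Epc1, passed higher with deposited FPKM, with TPM and with the replicate block. The range of replicate numbers gave 4 subunits lower from morulae to blastocysts, with Kat5 and Ing3 added. Apart from the absence of Mbtd1 at the filter of 5, causes were not tested.

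With each library left out, the counts were 0 to 3 genes lower in 2-cell embryos, 140 to 558 higher and 412 to 1186 lower in morulae, 1 to 2 subunits higher and 1 to 2 lower in blastocysts, and 413 to 865 genes and 0 to 1 subunits higher in the interaction. Values that changed sign, here and under the other alternatives, had not passed on either side. They were in 2-cell embryos Kat5 (-0.3707 to 0.1845), Ep400 (-0.092 to 0.071), Trrap (-0.0233 to 0.224), Brd8 (-0.2676 to 0.225) and Morf4l1 (-0.1755 to 0.2887), in morulae Ing3 (-0.0847 to 0.0662) and Epc1 (-0.2784 to 0.2687), in blastocysts Brd8 (-0.1192 to 0.0305) and Morf4l1 (-0.0578 to 0.1483), from morulae to blastocysts Ep400 (-0.2117 to 0.0159), and in the interaction Trrap (-0.1414 to 0.0923) and Epc2 (-0.0098 to 0.1626).

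Deposited FPKM gave -0.0178 for Brd8 and -0.0165 for Morf4l1 in 2-cell embryos, -0.1058 for Ing3 and -0.0204 for Epc1 in morulae, and 0.015 for Ep400 and 0.0818 for Trrap in the interaction. TPM gave -0.0048 for Trrap, -0.0541 for Brd8 and -0.05 for Morf4l1 in 2-cell embryos, -0.1645 for Ing3 and -0.077 for Epc1 in morulae, 0.0335 for Brd8 in blastocysts, and 0.127 for Ep400 and 0.1974 for Trrap in the interaction. The pseudocount of 0.1 gave 0.0249 for Kat5 in 2-cell embryos. The range of replicate numbers gave 0.0352 for Kat5 and -0.0245 for Brd8 in 2-cell embryos and 0.0446 for Trrap in the interaction.

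The replicate block gave 0.0789 for Kat5 and -0.0152 for Brd8 in 2-cell embryos, -0.3718 for Epc1 in morulae, -0.3158 for Trrap from morulae to blastocysts, and 0.086 for Ep400 and 0.0634 for Trrap in the interaction. With it 2 subunits were lower in morulae (Kat5 and Morf4l1), 2 lower in blastocysts (Kat5 and Mrgbp) and 1 higher from morulae to blastocysts. Pairing by number is not stated for these libraries. After subtraction of group means, libraries with equal numbers correlated at 0.015 to 0.214 in 2-cell embryos, 0.094 to 0.181 in morulae and -0.11 to 0.353 in blastocysts. Those with different numbers correlated at -0.237 to 0.205, -0.278 to 0.346 and -0.381 to 0.401. The mean was higher for equal numbers at each stage, at 0.146, 0.138 and 0.083 against -0.049, -0.028 and -0.029.

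Factors without centring, which were the first fits made, gave the same counts of subunits in all 6 comparisons, and 465 genes higher and 993 lower in morulae. This alternative was added after the data had been seen.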
